A study of Mus musculus with 4 samples.

Results

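The tetraspanins described here are 10 genes of blood cells, Tspan13, Cd9, Cd37, Cd53, Cd63, Cd81, Cd82, Cd151, Tspan4 and Tspan14, taken by name from a table of 24497 mouse rows. All 10 were found, and all 10 reached the level needed for testing. They were measured by RNA-seq in leukaemic cells from mouse spleen, in 2 libraries labelled WT and 2 labelled Tet2 KO. Per the labels the groups differ in donor genotype alone. Haematopoietic stem cells from the marrow of wild-type or Tet2-/- donors carried NRAS and AE9a, a truncated form of the AML1-ETO fusion. Per the labels they were grown with SCF at 50 ng/ml and IL-3 and IL-6 at 10 ng/ml, under G418 at 1 mg/ml and puromycin at 2 µg/ml. They were put into CD45.1+ recipients of 6 to 8 weeks that had received 900 cGy, and CD45.2 cells were enriched from the spleen. The labels name neither the Tet2 allele nor the promoter of the transgenes, nor the number of mice behind each group. The p-values therefore describe only how far these libraries spread, largely as pooled over genes, and that spread may be technical.

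Tetraspanins are small proteins that cross the membrane several times and gather integrins, receptors and proteases into membrane microdomains. In blood cells they take part in adhesion, migration, antigen receptor signalling and the traffic of endosomes and extracellular vesicles. Cd63 marks late endosomes and granules, Cd9 and Cd81 are standard surface markers of extracellular vesicles, Cd37 and Cd53 are largely restricted to blood cells, and Tspan14 belongs to the TspanC8 group, which escorts the protease ADAM10 to the cell surface. TSPAN13 has been linked in acute leukaemia to TET2 and to signalling by the chemokine receptor CXCR4.

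Values are TPM, a level per transcript length, so that genes can be ordered within a library. Low TPM values fell on multiples of 1 read, which put the depth at about 18.4 to 23.5 M reads (M for 1000000). For most genes the WT libraries lay little further apart than read sampling would place them. Their robust variance was 1.17 times that of sampling over 5837 genes, against 8.80 for the libraries labelled Tet2 KO over 6085 genes. The plain variance ratio was 2.33 in WT against 53.4. In the tenth of genes with most reads the robust ratio was 1.51 against 167. In WT 33 genes lay beyond 5 SD of sampling, against 1279, so sampling did not cover every gene. On the robust measure the WT pair was counted as 1 sample, and the libraries labelled Tet2 KO as 2. All spread in the tests thus comes from the Tet2 KO pair. With 1 residual degree of freedom, limma drew each standard error largely from the spread of other genes of similar level. Differences are Tet2 KO minus WT on the log2(TPM + 1) scale, ± the standard error from limma, with Benjamini-Hochberg adjusted p-values over 11918 genes and a threshold of 0.05. That scale understates the change of low genes. Of all tested genes, 22.3% were higher and 26.7% lower in the libraries labelled Tet2 KO.

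The groups also differed in library-wide measures. ERCC spike-in RNAs took 4.62% to 4.66% of TPM in WT and 2.95% to 3.19% in the other group. Xist, on chromosome X, was 0.34 TPM in both WT libraries, compared with 86.05 and 28.2 TPM in the other pair. Genes on chromosome Y moved the opposite way. Eif2s3y measured 107.4 and 107.2 TPM for WT, against 29.8 and 90.4 TPM. Ddx3y measured 52.1 and 51.0 TPM for WT, against 11.9 and 34.4 TPM, and Kdm5d and Uty were lower too. Neither Xist nor these Y genes passed the test, since the Tet2 KO pair differed widely. Whether the sex of the cells differs between libraries, and its part in the differences reported here, was not tested. Tet2 itself stood at 43.5 and 43.7 TPM in the WT pair, compared with 63.7 and 68.1 TPM in the pair labelled Tet2 KO, so a level over the whole gene did not check the label, and directions rest on the labels. Scaling to the ERCC total moved the median difference of all genes from -0.11 to 0.44, and 41.7% of genes were then higher and 12.5% lower. Of 13 genes listed for myeloid identity, 12 reached 1 TPM in each WT library and 13 in each of the others. Some, such as Ptprc, Cd34 and Kit, are not specific to myeloid cells. Of the 13, 7 rose and 2 fell, beside 22.3% higher and 26.7% lower over all tested genes. Cell type markers also differed. In a list of 11 neutrophil markers, 10 rose and 0 fell, and their summed level was 1538 and 1571 TPM in WT against 96836 and 76258 TPM. In bulk libraries, fewer cells of a type and less RNA per cell cannot be told apart.

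Among the 10 tetraspanins, Tspan14, Cd63 and Cd37 rose and Tspan13 fell in the libraries labelled Tet2 KO. The other 6 did not pass the test. So 3 of 10 were higher, beside 22.3% of all tested genes, and 1 of 10 was lower, beside 26.7%, which puts the counts near the background. The median difference of the 10 was 0.18, against -0.11 over all tested genes. In 9 of 10 the libraries of the groups did not overlap, as in 87.0% of all tested genes. Without the filter on low values, where 18593 genes were tested, none of the 4 calls was kept, with adjusted p from limma of 0.0775 for Tspan13, 0.141 for Cd37, 0.0750 for Cd63 and 0.0985 for Tspan14. With ERCC scaling 6 were higher and 1 lower.

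**Figure D1:**
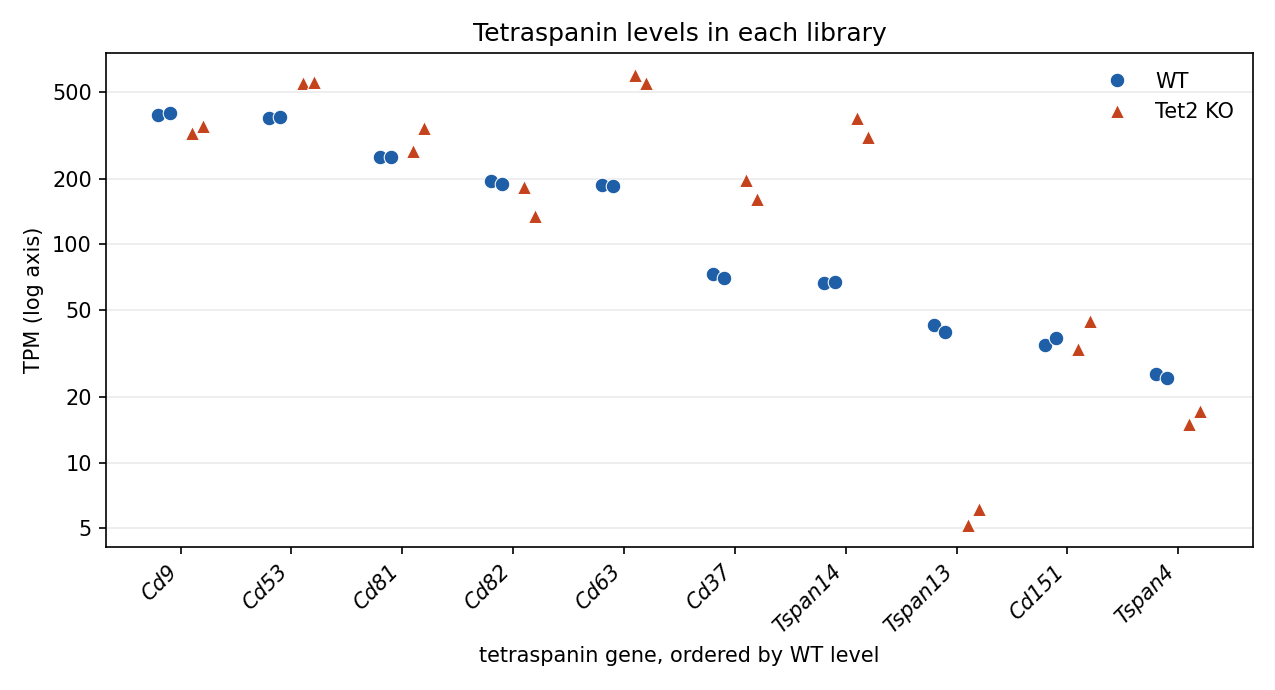
TPM on a log axis for each of the 10 tetraspanins, ordered by WT level, with 1 point per library (circles WT, triangles libraries labelled Tet2 KO). Tspan13 lies at 39.65 and 42.6 TPM in the WT pair, compared with 5.20 and 6.16 TPM in the other pair, while Tspan14 lies at 66.7 and 67.1 TPM in the WT pair, compared with 309 and 381 TPM in the other pair.

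Tspan13 showed the only fall among the 10 that passed. It lies on chromosome 12 at 36014557 to 36042500, minus strand, in mm10. Its level was 42.6 and 39.65 TPM in the WT libraries and 5.20 and 6.16 TPM in those labelled Tet2 KO. Both WT libraries were high and both others low, with no overlap, and the level in WT was 7.24 times that in the other group (mean of the Tet2 KO libraries 5.68 ± 0.679 TPM, SD, n = 2). The difference was -2.66 ± 0.28 (limma adjusted p = 1.11e-06), and -2.11 with ERCC scaling (limma adjusted p = 0.000736). For this gene, which has 1 RefSeq transcript, the values correspond to about 799 and 675 reads in WT and about 110 and 136 in the others. Tspan13 thus passed from the eighth most abundant of the 10 genes to the least abundant, behind Tspan4.

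Many markers of dendritic cells, monocytes and macrophages were lower in the same libraries as Tspan13. Of 7 plasmacytoid dendritic cell markers 4 were tested, and all 4 fell, though Siglech passed the filter only through the WT pair. The list's summed level was 414 and 417 TPM in the WT pair, compared with 23.4 and 39.15 TPM in the other pair. In WT the list ran from Bst2 at 251 and 255 TPM, Tcf4 at 96.0 and 96.2 TPM and Irf8 at 64.1 and 62.8 TPM to Siglech at 1.48 and 1.38 TPM. The 3 untested genes, Ccr9, Ly6d and Pacsin1, reached at most 1.19 TPM. Of 7 conventional dendritic cell markers 5 were tested and all 5 fell, from summed levels of 431 and 434 TPM to 63.7 and 44.3 TPM. With ERCC scaling 3 of the 5 tested conventional dendritic cell markers were lower. Of 11 monocyte and macrophage markers 10 were tested, of which 6 fell and 0 rose, with a median of -1.03. Among them Cx3cr1 fell from 311 and 310 TPM to 2.94 and 1.57 TPM, and the list's summed level was 2675 and 2684 TPM in the WT pair, compared with 1544 and 1601 TPM in the other pair. The part of these markers in the fall of Tspan13 was not tested.

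The genes with the pattern most like that of Tspan13 were Ephb2, Ifi35, Il12rb1, Lrrk1 and Dpp4. Likeness was the distance between profiles on the log2(TPM + 1) scale over the 4 libraries, after each gene's mean was subtracted, among 9194 genes with a mean of at least 5 TPM. Ephb2, an ephrin receptor, stood at 10.3 and 10.0 TPM in the WT pair, compared with 0.62 and 0.89 TPM in the other pair (distance 0.0451). Ifi35, an interferon-induced gene, stood at 179 and 173 TPM and at 24.8 and 27.6 TPM (distance 0.0694). With 4 libraries in 2 groups, nearness in this measure is set largely by the size of the difference between the groups.

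Tspan14 had the largest rise of the 10. The gene lies on chromosome 14 at 40906445 to 40966807, minus strand. Its level was 66.7 and 67.1 TPM in the WT pair, compared with 381 and 309 TPM in the pair labelled Tet2 KO. The groups did not overlap, and the mean of 345 ± 50.4 TPM (SD, n = 2) was 5.15 times the WT level. The difference was 2.34 ± 0.22 (limma adjusted p = 4.01e-07), and 2.93 with ERCC scaling.

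Cd63, the tetraspanin of lysosomes and granules, lies on chromosome 10 at 128900989 to 128912822, plus strand. Its level was 187 and 184 TPM in the WT pair, compared with 593 and 549 TPM in the pair labelled Tet2 KO. Again the groups were apart, with a mean of 571 ± 31.5 TPM (SD, n = 2) that was 3.08 times the WT level. The difference was 1.62 ± 0.24 (limma adjusted p = 3.99e-05), and 2.21 with ERCC scaling. Cd63 is also used as an activation marker of basophils and mast cells. Of 9 mast cell and basophil markers 5 were tested and all 5 rose. Cpa3, Gata2, Mcpt8 and Cma1 were under 1 TPM in both WT libraries. They passed the filter only through the Tet2 KO pair, which favoured a rise. The list's summed level went from 4.07 and 4.73 TPM to 175 and 182 TPM. Most of the latter was Hdc, at 128 and 127 TPM, followed by Cpa3 at 20.9 and 28.9 TPM. Cma1 reached at most 2.43 TPM, and the untested Fcer1a, Ms4a2, Prss34 and Tpsb2 at most 1.68 TPM. The part of these markers in the rise of Cd63 was not tested.

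Cd37, a tetraspanin of B cells and myeloid cells that binds the lectin receptor Dectin-1, lies on chromosome 7 at 45233632 to 45239115, minus strand. Its level was 72.8 and 70.3 TPM in the WT pair, compared with 196 and 161 TPM in the pair labelled Tet2 KO. The lower of the latter was still above both WT libraries, and the mean of 178 ± 25.2 TPM (SD, n = 2) was 2.49 times the WT level. The difference was 1.30 ± 0.21 (limma adjusted p = 0.000106), and 1.89 with ERCC scaling. B cell markers were low in all libraries, with a summed level of the 7 listed genes of 9.55 and 8.58 TPM in the WT pair, compared with 6.42 and 4.09 TPM in the other pair. The 10 neutrophil markers that rose did so in the same libraries as Cd37, Cd63 and Tspan14, and their part in these rises was not tested.

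The promoters of Tspan13, Tspan14 and Cd63 are shown because these genes moved the most, in opposite directions. Each sequence is taken from RefSeq (GRCm38.p6, the mm10 build), runs 5′ to 3′ on the gene's strand, and ends at the annotated start, or at the first annotated exon base where that comes earlier. Of the 10 genes, 10 matched an entry, and the window whose start lay nearest to the GENCODE gene start was used. Capitals mark matches, on either strand, to any of 8 motifs: RUNX TGTGGT, PU.1 and ETS GAGGAAG, the GC box GGGCGG, C/EBP TTGCNNAA, AP-1 TGANTCA, the interferon response element, CCAAT and TATAAA. The motifs were chosen after the values had been seen, and no matches of different motifs overlapped in these 3 windows.
Tspan13, chr12:36042501-36042728, minus strand: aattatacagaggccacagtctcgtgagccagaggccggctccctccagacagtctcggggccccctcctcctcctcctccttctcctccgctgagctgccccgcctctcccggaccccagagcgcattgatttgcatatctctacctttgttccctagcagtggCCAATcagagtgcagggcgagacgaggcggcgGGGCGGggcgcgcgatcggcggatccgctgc
Tspan14, chr14:40966897-40967146, minus strand: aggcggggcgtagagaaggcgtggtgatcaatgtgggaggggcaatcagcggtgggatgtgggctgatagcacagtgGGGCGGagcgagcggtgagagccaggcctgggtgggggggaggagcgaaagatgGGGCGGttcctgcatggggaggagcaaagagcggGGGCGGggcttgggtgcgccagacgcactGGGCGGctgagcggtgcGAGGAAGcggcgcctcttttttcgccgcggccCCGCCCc
Cd63, chr10:128909095-128909344, plus strand: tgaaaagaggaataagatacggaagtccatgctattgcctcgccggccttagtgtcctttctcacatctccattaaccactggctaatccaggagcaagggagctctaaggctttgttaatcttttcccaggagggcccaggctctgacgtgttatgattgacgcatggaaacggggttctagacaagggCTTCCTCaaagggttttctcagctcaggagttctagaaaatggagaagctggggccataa

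In the full window of 250 bases before the start, the Tspan13 promoter held 21 CpG and that of Tspan14 22, against 6 for Cd63 and a median of 6 over 32841 windows of the same length. Tspan13 had 1 GC box, whose first base lay 53 bases before the RefSeq start, and 1 CCAAT box at 85 bases. The RefSeq start of Cd63 lies inside the longer GENCODE gene, so the window shown is that of the RefSeq transcript. Tspan14 and Cd63 each had 1 match to GAGGAAG, at 39 and 60 bases before the start, and so did Cd37 at 24 bases. Cd37 is not printed, since annotated exons cover part of its window. Among all windows, 10.6% held these letters, and since the motifs were picked with the values known, nothing is drawn from which genes match. The GC box was found in 8 of 10, against 32.75% of all windows. The RUNX letters, which AML1-ETO fusions bind, were found in 1 of 10, Cd53, against 14.05% of all windows. The interferon response element letters were in 0 of 10 (2.98% of all windows), as were those of AP-1 (6.75%) and the TATA box (12.4%). C/EBP letters were in 1 of 10 (9.57% of all windows) and CCAAT in 2 of 10 (33.9%). A match is a description of these letters in this window and not a measured binding site.

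Cd53, a blood cell tetraspanin that associates with the phosphatase CD45, stood at 381 and 382 TPM in the WT pair, compared with 548 and 553 TPM in the pair labelled Tet2 KO. The libraries within each group were close and the groups apart, but the difference of 0.53 ± 0.24 did not pass (limma adjusted p = 0.0853). It passed with both WT libraries as samples (limma adjusted p = 0.00421) and with ERCC scaling (1.12, limma adjusted p = 0.00822). Ptprc, which encodes CD45, stood at 292 and 296 TPM in the WT pair, compared with 413 and 396 TPM in the other pair, a difference of 0.46 ± 0.23 (limma adjusted p = 0.118).

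Cd9, which regulates adhesion and fusion and is abundant on platelets and myeloid cells, was the most abundant of the 10 in WT. It stood at 392 and 399 TPM there and at 325 and 350 TPM in the pair labelled Tet2 KO. The latter were lower without overlap, but the difference of -0.23 ± 0.23 did not pass (limma adjusted p = 0.436) and was 0.37 with ERCC scaling. Of 7 platelet and megakaryocyte markers 3 were tested, of which 2 rose, Itga2b and Pf4. Pf4, platelet factor 4, stood at 1.30 and 0.61 TPM in WT and reached 10.7 and 15.7 TPM in the other pair. The list had summed levels of 4.26 and 3.58 TPM in the WT pair, compared with 14.0 and 20.7 TPM in the other pair, and its part in the level of Cd9 was not tested.

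Cd81, part of a coreceptor complex of B cells and a marker of extracellular vesicles, stood at 251 and 252 TPM in the WT pair, compared with 266 and 342 TPM in the pair labelled Tet2 KO. The difference was 0.26 ± 0.24 (limma adjusted p = 0.380), and 0.86 with ERCC scaling (limma adjusted p = 0.0224). Cd82, known as a suppressor of metastasis, stood at 195 and 188 TPM in the WT pair, compared with 183 and 135 TPM in the other pair. Its difference of -0.29 ± 0.23 did not pass (limma adjusted p = 0.324) and was 0.31 with ERCC scaling. For both genes, as for Cd151, the spread within the Tet2 KO pair was wide, with the higher library at 1.285 times the lower for Cd81, 1.36 times for Cd82 and 1.34 times for Cd151, against 1.01 times for Cd53. The standard errors did not follow this spread (0.24 for Cd53 and 0.22 for Cd151), since limma pools it over genes.

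Cd151, which binds laminin-binding integrins, was the only one of the 10 whose groups overlapped. Its level was 34.5 and 37.1 TPM in the WT pair, compared with 33.1 and 44.45 TPM in the pair labelled Tet2 KO, a difference of 0.10 ± 0.22 (limma adjusted p = 0.733). With ERCC scaling it passed at 0.68 (limma adjusted p = 0.0274). Tspan4, found in migrasomes, the vesicles that migrating cells leave behind, stood at 25.45 and 24.3 TPM in the WT pair, compared with 15.05 and 17.25 TPM in the other pair. The groups were apart, and the difference of -0.60 ± 0.25 was just short of the threshold (limma adjusted p = 0.0551). It passed with both WT libraries as samples (limma adjusted p = 0.00741), with a filter of 5 TPM (limma adjusted p = 0.0492) and without WT replicate 2 (limma adjusted p = 0.0442), and was -0.03 with ERCC scaling. Cd151 and Tspan4 are neighbours on the plus strand of chromosome 7, with 3.77 kb between them.

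The summed level of the 10 genes was 1648.5 and 1643 TPM in the WT pair, compared with 2546 and 2466 TPM in the pair labelled Tet2 KO. In WT, Cd9 held 23.8% and 24.3% of the sum and Cd53 23.1% and 23.3%. In the other group, Cd63 held 23.3% and 22.3%, against 11.3% and 11.2% in WT, and Tspan14 held 14.95% and 12.5%, against 4.05% and 4.09%. Cd9 held 12.8% and 14.2% there. Tspan13 held 2.58% and 2.41% in WT, against 0.204% and 0.250%. These shares describe composition and were not tested.

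**Figure D2:**
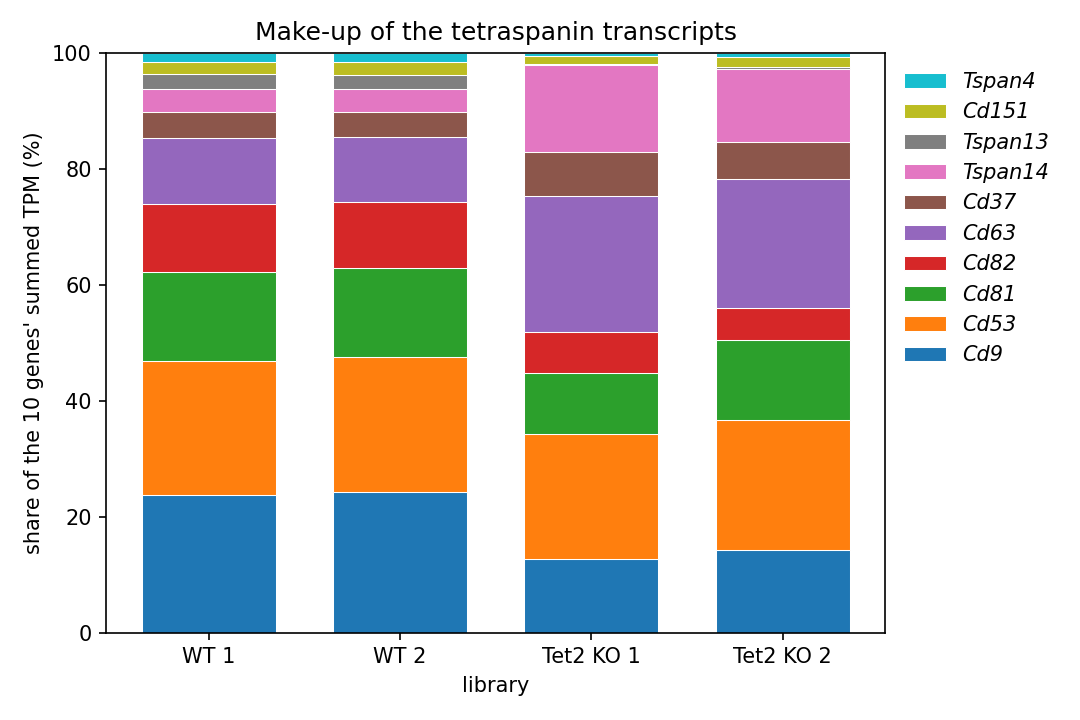
Share of the summed TPM of the 10 tetraspanins held by each gene, in percent, with 1 stacked bar per library. Cd9 and Cd53 make up the largest parts in WT, and Cd63 (23.3% and 22.3%) and Cd53 (21.5% and 22.4%) do so in the libraries labelled Tet2 KO.

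In both WT libraries the order of levels was Cd9, Cd53, Cd81, Cd82, Cd63, Cd37, Tspan14, Tspan13, Cd151 and Tspan4, and neighbours in that order did not overlap. In the libraries labelled Tet2 KO, Cd63 and Cd53 were highest and overlapped each other. Tspan14, Cd9 and Cd81 followed and overlapped, as did Cd37 and Cd82 after them. Cd151, Tspan4 and Tspan13 came last and were apart from each other.

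The rest of the family was checked for comparison. Of 33 tetraspanin genes listed, 31 were in the table and 20 were tested. Of these 20, 5 rose and 7 fell, beside 22.3% higher and 26.7% lower over all tested genes. The 11 untested genes reached at most 0.31 TPM in any library. Among the 10 tested that are outside the blood cell set, 2 rose and 6 fell, with a median of -1.14 against -0.11 over all tested genes. With ERCC scaling these medians were -0.65 and 0.44.

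Upk1b, a uroplakin best known from the bladder lining, had the largest fall of the family. Its level was 14.6 and 13.5 TPM in the WT pair, compared with 0.05 and 0 TPM in the pair labelled Tet2 KO, a difference of -3.88 ± 0.27 (limma adjusted p = 8.81e-09). The gene lies on chromosome 16 at 38773184 to 38800328, minus strand. Upk1a, the related uroplakin, stood at 2.85 and 2.54 TPM in the WT pair, compared with 1.27 and 1.41 TPM in the other pair and did not pass (limma adjusted p = 0.0569).

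Tspan31, a close relative of Tspan13 in the family, stood at 109 and 103 TPM in the WT pair, compared with 42.1 and 53.6 TPM in the pair labelled Tet2 KO. It fell by 1.13 ± 0.20 (limma adjusted p = 0.000266), and its difference was -0.55 with ERCC scaling (limma adjusted p = 0.0460). Tspan3 fell too, from 21.5 and 22.0 TPM to 6.65 and 10.0 TPM, and Tspan2 fell from 4.36 and 4.86 TPM to 1.47 and 1.24 TPM. Both remained lower with ERCC scaling (limma adjusted p = 0.0486 and 0.0389). Rom1, a photoreceptor tetraspanin, stood between 3.31 and 4.32 TPM in all libraries (limma adjusted p = 0.714).

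Tspan32, a haematopoietic tetraspanin, rose by the most outside the blood cell set. Its level was 5.73 and 4.17 TPM in the WT pair, compared with 25.9 and 22.6 TPM in the pair labelled Tet2 KO, a difference of 2.10 ± 0.26 (limma adjusted p = 7.41e-06). On chromosome 7 it lies 33.1 kb before Cd81 on the same strand, and Cd81 did not pass. The difference between the neighbours was not tested.

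**Figure D3:**
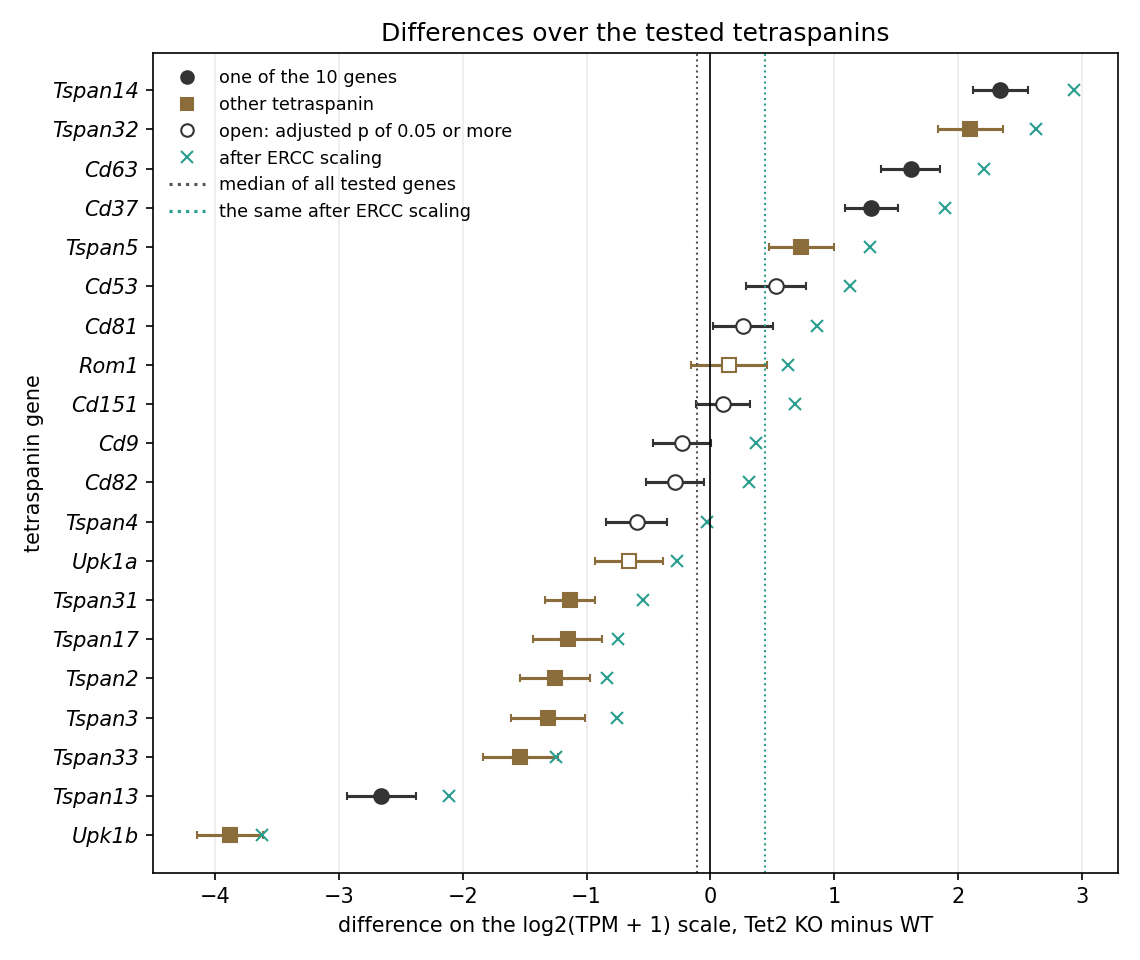
Difference between libraries labelled Tet2 KO and WT on the log2(TPM + 1) scale for the 20 tested tetraspanins (circles the 10 genes, squares others), with bars for the standard error from limma, open symbols for adjusted p of 0.05 or more, and crosses for the value after ERCC scaling. Differences run from -3.88 for Upk1b and -2.66 for Tspan13 to 2.10 for Tspan32 and 2.34 for Tspan14, and ERCC scaling shifts each upward together with the median of all genes (dotted lines, -0.11 and 0.44).

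Among Adam10 and the TspanC8 tetraspanins that escort its protein, 2 of 5 tested genes rose and 2 fell. Over all tested genes 22.3% were higher and 26.7% lower, and with 5 genes nothing is drawn from these counts. Adam10 itself stood at 158 and 161 TPM in the WT pair, compared with 124 and 121 TPM in the pair labelled Tet2 KO, a difference of -0.38 ± 0.20 that did not pass (limma adjusted p = 0.132) and was 0.21 with ERCC scaling. Of the 6 TspanC8 genes, Tspan14 and Tspan5 rose and Tspan33 and Tspan17 fell, and the other two were not tested. Tspan5 stood at 9.24 and 9.94 TPM in the WT pair, compared with 17.5 and 15.8 TPM in the other pair (limma adjusted p = 0.0308). Tspan33 stood at 3.07 and 3.28 TPM and at 0.14 and 0.82 TPM (limma adjusted p = 0.00120), and Tspan17 at 5.36 and 3.07 TPM and at 1.24 and 1.34 TPM (limma adjusted p = 0.00294). Tspan14 held 78.8% and 80.3% of the summed TspanC8 level in WT and 95.3% and 94.5% in the others, and that sum was 84.6 and 83.6 TPM in the WT pair, compared with 400 and 327 TPM in the other pair.

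The lists of partners and pathway genes that follow are read beside the 22.3% of all tested genes that were higher and the 26.7% that were lower. Of 9 proteins shed by ADAM10, 8 were tested, of which 4 fell and 2 rose, with a median of -1.03. The falls were led by the membrane-bound chemokines Cxcl16, from 1109 and 1125 TPM to 30.8 and 37.2 TPM, and Cx3cl1, from 210 and 214 TPM to 0.66 and 1.36 TPM, followed by the receptor kinase Axl, which fell by 2.59 ± 0.28. Notch1 rose from 21.8 and 21.1 TPM to 93.4 and 65.2 TPM (limma adjusted p = 3.55e-05). Notch2 rose by 0.54 ± 0.22 (limma adjusted p = 0.0498), a call lost under 6 alternatives.

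Integrin chains that associate with tetraspanins were mixed, with 3 of 7 tested higher and 2 lower and a median of -0.02. Itgal, the alpha chain of LFA-1, rose from 129 and 135 TPM to 419 and 305 TPM (limma adjusted p = 0.000228). Itgb2, its beta chain, rose by 0.71 ± 0.27 (limma adjusted p = 0.0401), a call that quantile normalization and 4 other alternatives ended. Itga2b rose from a level of 0.26 and 0.42 TPM and passed the filter only through the Tet2 KO pair. Itga4, a chain of VLA-4, stood at 72.2 and 70.7 TPM in the WT pair, compared with 36.3 and 28.8 TPM in the other pair (limma adjusted p = 0.000339), and Itgb3 fell by 1.07 ± 0.30. Neither fall passed with ERCC scaling.

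Among 12 other membrane partners 9 were tested, of which 3 rose and 3 fell, with a median of 0.46. Clec7a, which encodes Dectin-1, the partner of CD37, rose from 46.0 and 47.4 TPM to 118 and 103 TPM (limma adjusted p = 8.68e-05). Ptgfrn, a partner of CD9 and CD81, rose from 1.10 and 0.90 TPM to 7.48 and 9.03 TPM (limma adjusted p = 2.64e-05), while Igsf8, another such partner, fell from 40.5 and 42.8 TPM to 11.6 and 14.7 TPM (limma adjusted p = 6.78e-05). Hbegf, a growth factor that CD9 binds, rose from 0.04 and 0.33 TPM to 1.45 and 2.50 TPM. Il7r, which associates with CD53, fell from 210 and 216 TPM to 20.9 and 25.8 TPM (limma adjusted p = 3.44e-09).

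In the list of vesicle and endosome genes, which sort CD63 and release vesicles that carry it, 7 of 21 tested members rose and 0 fell, beside 22.3% higher and 26.7% lower over all tested genes. The list's median was 0.33. Rab27a, which docks secretory granules and endosomes at the plasma membrane, rose from 4.76 and 4.55 TPM to 108 and 77.0 TPM, a difference of 4.03 ± 0.23 (limma adjusted p = 7.66e-09). In the same libraries 10 of 11 neutrophil markers and all 5 tested mast cell and basophil markers rose. Of the latter, all but Hdc passed the filter only through the Tet2 KO pair. The part of both lists in the rise of Rab27a and the other vesicle genes was not tested. Flot2 and Flot1, membrane scaffolds, rose by 1.53 ± 0.24 and 0.88 ± 0.19. Sdcbp, which encodes syntenin, the adaptor that binds CD63, stood at 936 and 944 TPM in the WT pair, compared with 807 and 784.5 TPM in the pair labelled Tet2 KO (limma adjusted p = 0.470). Lamp1, a lysosome membrane protein that shares the compartment of CD63, stood at 866 and 868 TPM and at 711 and 674 TPM (limma adjusted p = 0.316).

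The CXCR4 axis, to which TSPAN13 has been linked, held 9 of 11 tested members that rose and 1 that fell, beside 22.3% higher and 26.7% lower over all tested genes. Its median was 1.04 against -0.11. Many genes of the list are not specific to this receptor. Among those that rose, Rgs1, Rgs2, Rgs18 and Adrbk1 damp signalling by G protein-coupled receptors. The counts therefore give no direction for CXCR4 signalling. The list also holds genes of leukocyte migration, and 10 of 11 neutrophil markers rose in the same libraries with a median of 5.83. Their part in the rises of this list was not tested. Cxcr4 stood at 137 and 134 TPM in the WT pair, compared with 939 and 696 TPM in the pair labelled Tet2 KO, a difference of 2.57 ± 0.26 (limma adjusted p = 1.04e-06) beside that of -2.66 ± 0.28 for Tspan13. Rac2, a small GTPase of leukocyte migration, rose from 88.1 and 89.9 TPM to 429 and 341 TPM (limma adjusted p = 1.93e-06), and Rgs18, a regulator of G protein signalling, stood at 0.06 and 0 TPM in the WT pair, compared with 6.47 and 3.03 TPM in the other pair. Ackr3, the scavenger receptor for the same ligand, fell from 1.91 and 1.16 TPM to 0.09 and 0.21 TPM (limma adjusted p = 0.000874). Rgs18 passed the filter only through the Tet2 KO pair, and Ackr3 only through the WT pair. The ligand Cxcl12 stood at or under 0.08 TPM in each library.

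**Figure D4:**
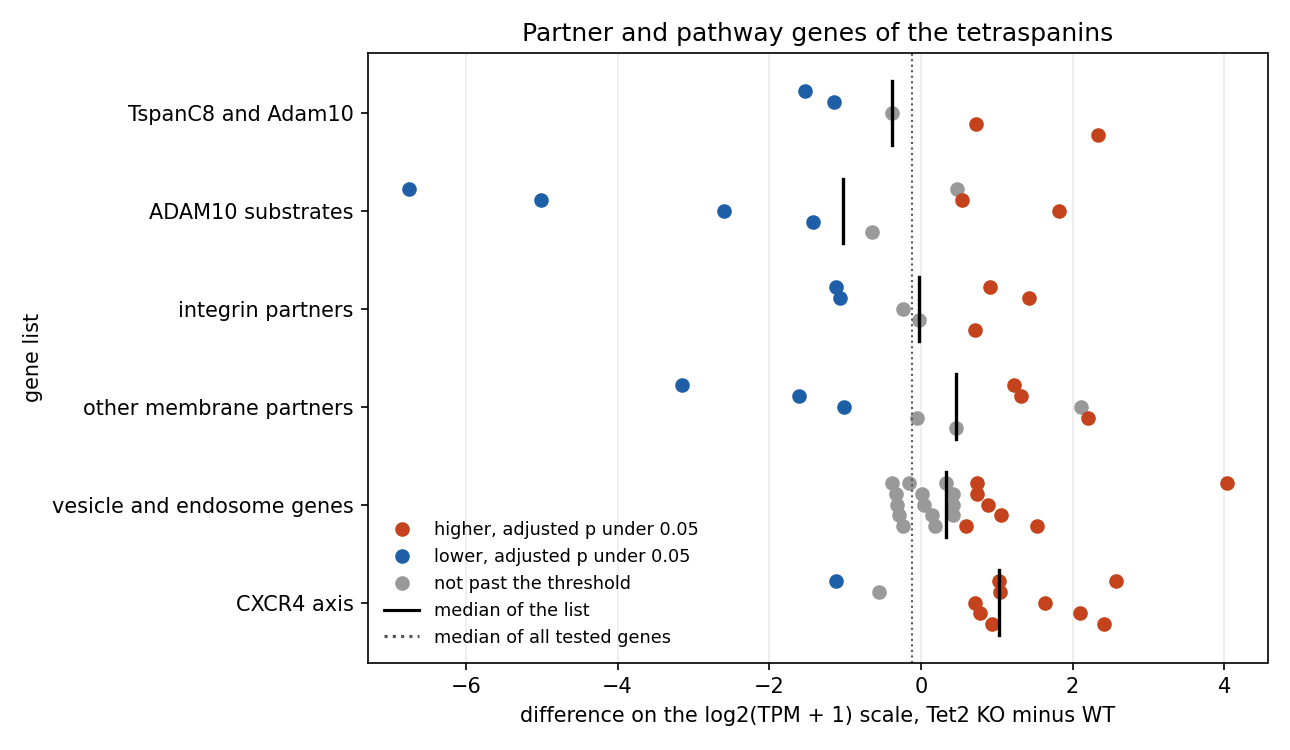
Difference between libraries labelled Tet2 KO and WT on the log2(TPM + 1) scale for tested genes of 6 lists linked to tetraspanins, with 1 point per gene, coloured by direction and adjusted p, and a black bar at the list's median. The CXCR4 axis has a median of 1.04 and the ADAM10 substrates one of -1.03, and the dotted line marks the median of all tested genes at -0.11.

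Some genes share bases with a neighbour. In the GENCODE annotation 6 of the 10 genes, Cd9, Cd37, Cd81, Cd82, Cd151 and Tspan4, overlap a gene on the opposite strand. The kit marks strand per the labels, but the strand setting of the counting was not stated in the labels or notes. The overlap is 292 bases for Tspan4 with Chid1, which stood at 9.31 and 9.61 TPM in the WT pair, compared with 4.12 and 4.77 TPM in the pair labelled Tet2 KO, and 13 bases for Cd37 with Tead2, at 1.14 to 5.01 TPM. Tspan13, Cd53, Cd63 and Tspan14 overlap no other annotated gene.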

How the data were processed

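RNA-seq of 4 libraries, 2 per group, was analysed from 1 table. Its values are TPM, deposited by the authors with 24589 rows per library, 92 of them ERCC. Per the submitters' processing notes the tools were STAR and RSEM and the build mm10. The versions and the annotation are not given in the sources used. Reads per TPM step were estimated from genes with 1 RefSeq transcript of 600 to 2500 nt (length minus 50 nt): 82.9% to 84.8% of low values lay within 0.2 of a whole multiple, where 40.0% would by chance. Depth is approximate, and no counting interval is given. limma 3.58.1 (R 4.3.3) was fitted to log2(TPM + 1), with trend and robust estimation, for genes with at least 1 TPM in at least 2 libraries, leaving out ERCC and Rn45s. The WT pair was averaged and counted once, leaving 1 residual degree of freedom. The members, lists and tests were chosen with earlier results of these data known. Named genes are the 10 members, each tested other tetraspanin, Adam10, Cxcr4 and Tet2, up to 3 called genes per list and direction by smallest p, and the 5 genes most like Tspan13 (Gm and Rik names left out); other markers and partners were picked with their values in view. In all 14 alternatives were run. Coordinates are from GENCODE M21, counted from 1, with 202 of 205 list genes matched. The planned comparison of protein sequences was not run. Some genes of the lists are not reported here.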

Additional observations from a re-analysis of the deposited data

How the results depend on the processing

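Of the 140 values of the 10 genes under 14 alternatives, 114 kept direction and side of the threshold. Scaled to the ERCC total, 4965 genes were higher and 1488 lower, 6 of the 10 were higher, and differences were 0.37 for Cd9, 1.12 for Cd53, 0.86 for Cd81, 0.31 for Cd82, 0.68 for Cd151 and 0.21 for Adam10. Cd9, Cd82 and Adam10 thereby changed sign. Without the filter 121 genes were higher and 288 lower, and 0 of the 10 were higher and 0 lower, with unchanged differences of -2.66 for Tspan13, 1.30 for Cd37, 1.62 for Cd63 and 2.34 for Tspan14. With a 5 TPM filter Tspan4 also passed (-0.60), so that 2 were lower.

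With both WT libraries as samples 3520 genes were higher and 4517 lower, and with the replicate block 3496 and 4460. Cd53 (0.53) and Tspan4 (-0.60) passed in both, which made 2 of the 10 lower. Deviations of same-numbered libraries did not correlate (r = -0.011 over 11918 genes). Since the WT libraries differed by little more than read sampling, this cannot decide whether the numbers pair the libraries.

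Leaving out 1 library gave 2651 to 4321 genes higher and 3191 to 5674 lower, with 3 to 6 of the 10 higher and 1 to 4 lower. Without a Tet2 KO library the spread comes from the WT pair alone. Ranges were -0.28 to -0.18 for Cd9, 0.52 to 0.53 for Cd53, 0.083 to 0.44 for Cd81, -0.50 to -0.067 for Cd82, -0.11 to 0.31 for Cd151, which changed sign without Tet2 KO replicate 2, and -0.69 to -0.50 for Tspan4. Of the other named genes' values, 841 were unchanged in call, 85 lost it (64 without the filter), 10 gained it and 1 changed sign. The cause of these changes was not tested.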
